A study of Mus musculus with 12 samples.

Results

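The 34 genes described here make and recycle the antioxidants of the cell: the NRF2 regulators, the enzymes of glutathione and thioredoxin, superoxide dismutases, catalase, peroxiredoxins and the metallothioneins Mt1 and Mt2, together with the oxidant-producing enzymes Nos2 and Nox4. The members were listed by symbol. All 34 were found among the 54232 gene identifiers of the count tables, each had at least 15 counts summed over the libraries, and all 34 passed the filter on low counts and were tested. They took 0.489% of all counts. RNA was sequenced from 12 dorsal wounds, 1 per library, made with a 6 mm full-thickness punch and collected on day 10. Every mouse was a male C57BLKS/J animal carrying Lepr (db/db), a loss of the leptin receptor that gives obesity and diabetes and that all 3 groups share, with a labelled age of 12.5 weeks. In the TD group (5 libraries) the wound had Tegaderm, a transparent adhesive film, alone. The Strain group (4 libraries) wore a patch made to put the wound under about 30% strain, and the No Strain group (3 libraries) wore a patch that imposed no strain. Whether some wounds share a mouse is not given in the labels, so p-values measure the spread between these samples, which may in part be technical. There was no unwounded skin and no non-diabetic animal among the samples used here.

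Oxidants in a wound come mainly from the NADPH oxidases of white blood cells and from the inducible nitric oxide synthase Nos2, and they are removed in steps. Superoxide dismutases turn superoxide into hydrogen peroxide, and catalase, glutathione peroxidases and peroxiredoxins reduce the peroxide. Glutathione and thioredoxin supply the electrons, and glutathione reductase and thioredoxin reductase recharge them with NADPH. The transcription factor NRF2 (Nfe2l2) is held by KEAP1 and degraded until oxidants or electrophiles modify KEAP1. NRF2 then binds antioxidant response elements and raises genes such as Gclm, Slc7a11, Srxn1 and Txnrd1. Metallothioneins are small cysteine-rich proteins that bind zinc and copper, and they are induced through metal response elements by the zinc-sensing factor MTF1. In skin wounds NRF2 is known as a regulator of the keratinocyte and leukocyte response to oxidants.

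The promoters of the members were searched for both elements, because many members are known targets of NRF2 and the metallothioneins are known targets of MTF1. RefSeq promoter windows (GRCm38.p6, from 250 bases before to 50 bases after a start) were matched for 28 of the 34 members, in 34 windows. The letters TGACNNNGC of the antioxidant response element, on either strand, were found in 7 of these windows, 20.6% of them, and in 12.4% of all 32851 windows of the same length. They occurred in Nfe2l2, Gclm, Sod1, Prdx1, Txnrd1, Srxn1 and Mt2. In Prdx1 and Mt2 the match overlaps the letters TGANTCA of an AP-1 site, found in 7.81% of all windows. A match is a run of letters and was not measured as a bound site. The matches of 3 members that rose in both patch groups are shown with 45 bases on either side and the match in capitals. All 3 are on the plus strand of the genome as printed, and the match reads TGACNNNGC on the other strand.
Gclm, chr3:122245378-122245476: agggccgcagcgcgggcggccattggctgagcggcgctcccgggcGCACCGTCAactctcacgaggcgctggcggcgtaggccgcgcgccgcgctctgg
Prdx1, chr4:116685421-116685519: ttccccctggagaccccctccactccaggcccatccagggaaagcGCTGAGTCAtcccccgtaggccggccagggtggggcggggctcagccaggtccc
Txnrd1, chr10:82859069-82859167: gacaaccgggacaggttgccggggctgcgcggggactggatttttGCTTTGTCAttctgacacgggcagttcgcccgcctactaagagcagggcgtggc
The match lies 134 bases before the start of Gclm, 133 before that of Prdx1 and 92 before the second of the 3 starts of Txnrd1 with a window; the other two Txnrd1 windows held none. For Gclc, Gsr, Gsta4, Nos2, Prdx6 and Sod3 no promoter was matched. Of the 7 members that rose in both patch groups, these 3 held a match, Slc7a11 and Prdx5 had windows without these letters, and Gsr and Prdx6 had no window. Only 250 bases before and 50 after a start were searched, so a window without a match does not show that a gene lacks the element.

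The metal response element was searched as TGCACNC or TGCGCNC on both strands, letters that 25.7% of all promoter windows hold, so that a single match carries little weight. Among the members 9 of 34 windows held it (26.5%). Mt1 held 3 matches and Mt2 held 4, and Gclm held as many as Mt1. Both metallothionein promoters lie on the plus strand of chromosome 8. They are shown from 130 bases before to 27 bases after the start, with the 3 matches that fall in each stretch in capitals.
Mt1, chr8:94178959-94179115: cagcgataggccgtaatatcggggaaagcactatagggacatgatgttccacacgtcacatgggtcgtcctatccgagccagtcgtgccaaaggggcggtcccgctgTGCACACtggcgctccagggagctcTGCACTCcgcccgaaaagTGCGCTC
Mt2, chr8:94172488-94172644: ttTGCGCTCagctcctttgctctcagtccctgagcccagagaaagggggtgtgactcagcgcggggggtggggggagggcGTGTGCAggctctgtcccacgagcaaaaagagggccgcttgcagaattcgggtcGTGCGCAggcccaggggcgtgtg

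Total counts ran from 20354677 to 25059371 per library, so 3 counts, taken as the floor for counting error, are at most 0.149 CPM (counts scaled to a common library total, with totals adjusted by TMM, the trimmed mean of M-values). Skin was the labelled tissue, and summed basal keratinocyte markers (4472 to 11058 CPM) and fibroblast markers (45682 to 79933 CPM) were high in every library. None of the 13 marker lists had a gene at 0 in all libraries. Several lists moved with the groups. Summed neutrophil markers (12 genes, among them S100a8 and S100a9) spanned 417 to 1603 CPM in TD, 835 to 8587 in Strain and 1986 to 5144 in No Strain, and 10 of 12 and 8 of 12 were called higher in Strain and No Strain against TD. S100a8 and S100a9 made up most of this sum in every library, so it ranks libraries mainly by these genes. Summed adipocyte markers (12 genes) spanned 1286 to 2961, 911 to 1387 and 699 to 997 CPM in the same order, with 7 of 12 and 11 of 12 called lower. Skeletal muscle markers (16 genes, 15 tested) summed to 7450.2 to 18539, 3599 to 6783 and 5276 to 11229 CPM, with 11 and 3 called lower, and wound-edge keratinocyte markers (7 genes) to 2637 to 4076, 3626 to 11218 and 3489 to 11478 CPM, with 1 called higher in each. Endothelial and T cell lists had 4 of 8 genes called higher in each patch group. In tissue RNA, fewer cells of a type and less RNA per cell cannot be told apart. Sample titles carry numbers of 1 to 6 for TD and 7 to 15 for the patch wounds; should these mark an order of handling, that order cannot be told apart from the treatment.

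The members were first compared as a whole. Under the strain patch 7 of 34 members rose against TD (edgeR quasi-likelihood test, Benjamini-Hochberg adjusted p under 0.05) and 0 fell, where 12.6% of all 18618 genes tested were called, 6.2% of them higher and 6.41% lower. These were Gsr, Gclm and Slc7a11 of glutathione metabolism, the peroxiredoxins Prdx1, Prdx5 and Prdx6, and the thioredoxin reductase Txnrd1. Under the patch without strain 13 of 34 members rose and 0 fell, against a background of 17.8% called, 9.35% higher and 8.4% lower. They were Gsr, Gclm, Gclc, Slc7a11, Gpx3, Sod2, Prdx1, Prdx5, Prdx6, Txnrd1, Srxn1, Sqstm1 and Nos2. The remaining 21 members passed in neither comparison. The 2 comparisons share the 5 TD libraries, so they are not independent of each other.

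The median log2 fold change of the 34 members was 0.26 in Strain and 0.33 in No Strain, each set against TD, beside 0.02 and 0.0045 over all genes tested. Estimates were above 0 for 26 and 29 of the 34. Libraries did not overlap between the groups for 9 members in the first comparison and 17 in the second, where 14.6% and 26.7% of all genes tested did not overlap. Between Strain and No Strain 0 of 34 members passed, as did 0% of all genes, and 4 members did not overlap, against a background of 5.62%. With the mean of the neutrophil or adipocyte list as a covariate 0 members were called in either comparison, and over all genes the neutrophil covariate left 0 calls and the adipocyte covariate 120 for Strain and 122 for No Strain. The summed CPM of each list did not overlap between TD and No Strain, so list and group can hardly be told apart there. In Strain the sums overlapped TD, but 8 of 12 neutrophil and 4 of 12 adipocyte markers did not, which limits those fits as well. The covariate itself was the mean log2 CPM of a list, and its overlap was not examined. The called members were picked by their calls, all above 0, in these same libraries, so their sign in a covariate fit is not a separate result. For the 13 called in No Strain the median log2 fold change was 0.72 without a covariate, 0.60 with the adipocyte list (13 of 13 above 0) and 0.86 with the neutrophil list (10 of 13 above 0). For the 7 called in Strain it was 0.56, 0.47 and 0.69, with 7 of 7 above 0 in both covariate fits. In No Strain over TD, Gsr was 0.98 with the adipocyte list and 1.24 with the neutrophil list (edgeR adjusted p = 0.22 and 0.788). Gclm was 0.75 and 1.65 (edgeR adjusted p = 0.259 and 0.287). With the neutrophil list Gpx3, Sod2 and Nos2 were below 0 there, at -0.11, -0.17 and -0.31. When the muscle list was the covariate, 0 members were called for Strain and 9 for No Strain (Gclc, Gpx3, Prdx5 and Nos2 were lost, with edgeR adjusted p from 0.0636 to 0.295), and without Strain replicate 2 the count for Strain was 4.

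**Figure D1:**
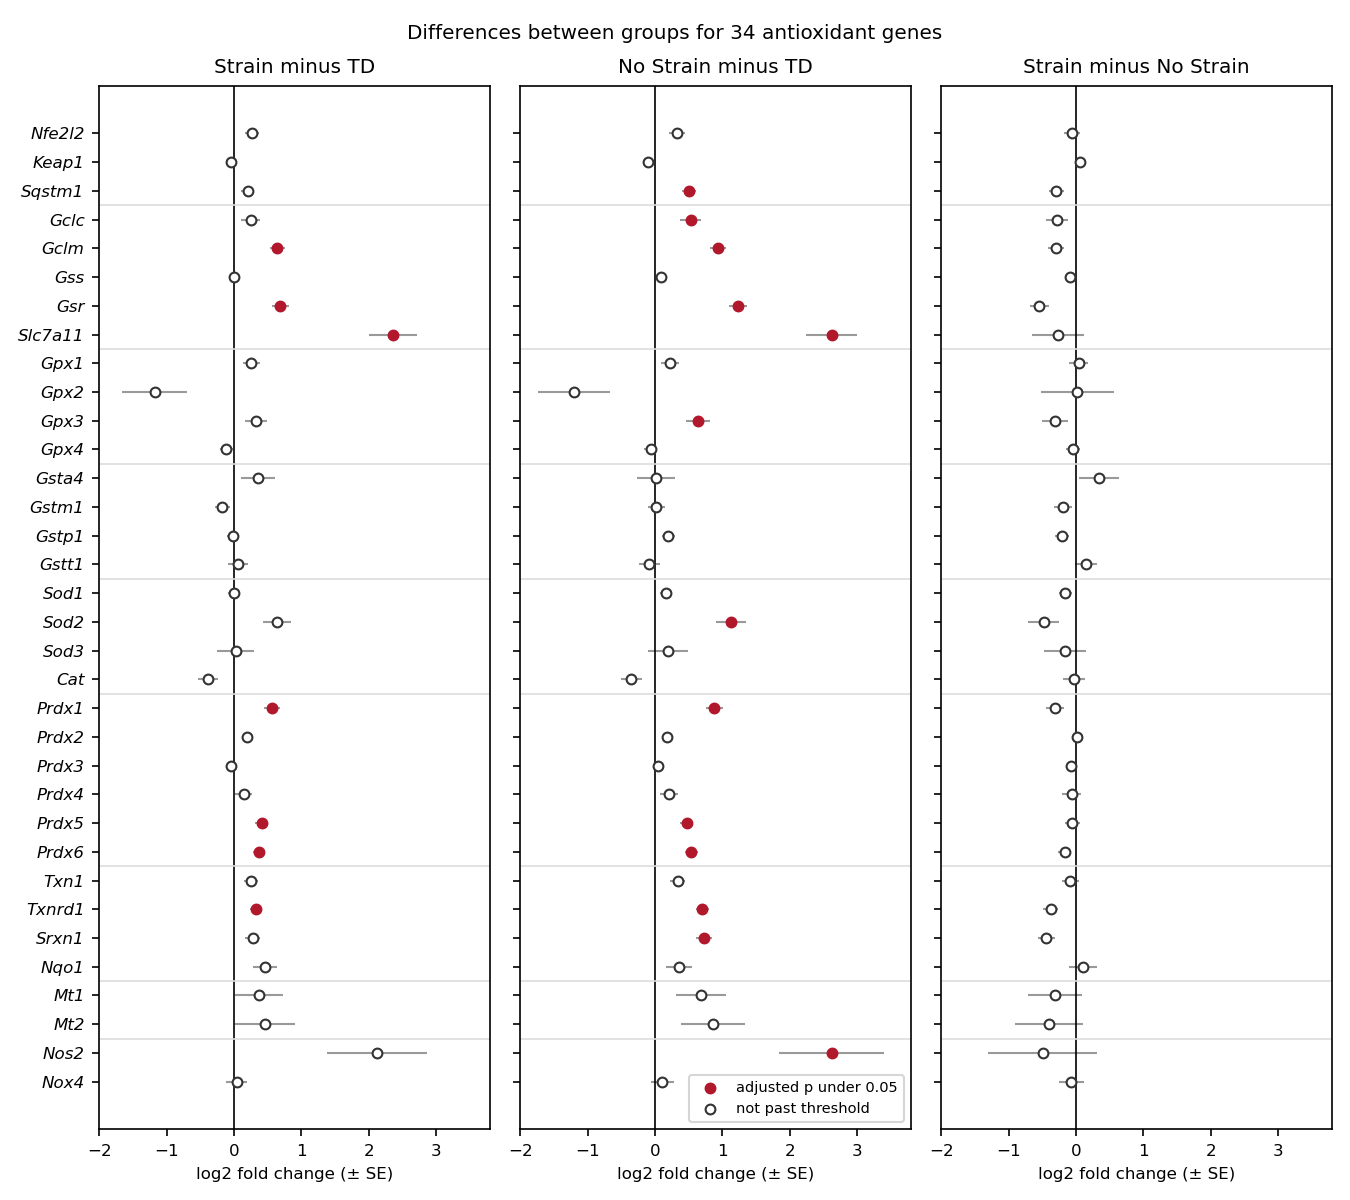
Log2 fold change (x axis) with its standard error (bars) of each of the 34 members (y axis, ordered by role, grey lines between roles) in the 3 pairwise comparisons; filled red points have an edgeR adjusted p under 0.05. A total of 7 members for Strain and 13 for No Strain are filled against TD, all to the right of 0, and 0 between Strain and No Strain.

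Among the regulators, the adaptor Sqstm1 rose under the patch without strain, while Nfe2l2 and Keap1 did not pass in any comparison. Nfe2l2, encoding NRF2 (chr2:75675513-75704641), had 109, 117, 103, 103 and 113 CPM in TD, 126, 167, 109 and 124 in Strain and 138, 128 and 144 in No Strain. The No Strain libraries all lay above TD, and Strain replicate 2 was the highest of the 12. Nfe2l2 had a log2 fold change of 0.27 ± 0.11 (SE) for Strain over TD (edgeR adjusted p = 0.112), 0.33 ± 0.11 for No Strain over TD (edgeR adjusted p = 0.0682), and -0.06 ± 0.12 for Strain over No Strain (edgeR adjusted p = 0.98). It passed in No Strain against TD when Strain replicate 2 was left out (edgeR adjusted p = 0.0128), when only these 2 groups were fitted (edgeR adjusted p = 0.0147) and by DESeq2 (adjusted p = 0.049). Keap1, the adaptor that directs NRF2 to degradation (chr9:21229730-21239361), had 59.8, 58.5, 57.7, 54.1 and 59.4 CPM in TD, 52.5, 56.9, 58.5 and 56.5 in Strain and 54, 52.9 and 55.4 in No Strain. Its groups overlapped throughout. Keap1 had a log2 fold change of -0.05 ± 0.05 (SE) for Strain over TD (edgeR adjusted p = 0.572), -0.10 ± 0.05 for No Strain over TD (edgeR adjusted p = 0.226), and 0.05 ± 0.06 for Strain over No Strain (edgeR adjusted p = 0.948). Its exons overlap Gm16754 on the other strand, and the strand setting of the counting is not given in the sources used here. Sqstm1 encodes p62 (chr11:50199366-50210827), an autophagy receptor that binds KEAP1. The gene had 333, 333, 360.3, 338 and 343 CPM in TD, 305, 412, 409 and 451 in Strain and 463, 487 and 501 in No Strain. All No Strain libraries lay above all Strain and TD libraries, and Strain replicate 1 lay below every TD library. Sqstm1 had a log2 fold change of 0.21 ± 0.10 (SE) for Strain over TD (edgeR adjusted p = 0.181), 0.50 ± 0.10 for No Strain over TD (edgeR adjusted p = 0.00996), and -0.29 ± 0.11 for Strain over No Strain (edgeR adjusted p = 0.872). Without Strain replicate 1 it passed in Strain against TD as well (edgeR adjusted p = 0.0209). Its exons overlap Mrnip on the other strand.

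The 5 members of glutathione synthesis, glutathione reduction and cystine uptake were Gclc, Gclm, Gss, Gsr and Slc7a11. Of these, 3 of 5 rose under strain and 4 of 5 without strain, beside 6.2% and 9.35% of all genes tested. Slc7a11 encodes the light chain xCT of the cystine and glutamate exchanger, which brings in the cystine from which glutathione is built (chr3:49892526-50443614). It had 21.8, 18.7, 16.3, 13.3 and 11.3 CPM in TD, 120.4, 124, 31.8 and 59.5 in Strain and 110.2, 106 and 85.2 in No Strain. Every patch library was above every TD library, and Strain replicates 3 and 4 were the lowest of the patch libraries. Slc7a11 had a log2 fold change of 2.36 ± 0.35 (SE) for Strain over TD (edgeR adjusted p = 0.00539), 2.62 ± 0.37 for No Strain over TD (edgeR adjusted p = 0.00262), and -0.26 ± 0.39 for Strain over No Strain (edgeR adjusted p = 0.966). These are folds of 5.13 and 6.16 over TD, the largest among members past the threshold in Strain, and in No Strain within the error of the fold of Nos2 given below. Strain replicate 3, the patch library with the lowest summed CPM of neutrophil markers, was also the lowest of them for Slc7a11. The listed markers did not all go this way. S100a8, S100a9, Cxcr2, Mmp8, Ly6g and Trem1 were lowest of the patch libraries there, whereas Camp, Ngp and Ltf were highest of all libraries. The part of the neutrophil list in the Slc7a11 difference was not tested apart from the covariate fit. In that fit the estimates were 1.49 and 1.60 with no call.

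Gsr, the glutathione reductase that regenerates reduced glutathione (chr8:33652523-33698163), had 70.7, 70.6, 60.1, 73.9 and 59.6 CPM in TD, 89.6, 103, 100.4 and 140.2 in Strain and 141, 153 and 179 in No Strain. The 3 groups did not overlap: every Strain library lay above TD and every No Strain library above Strain, the last by a narrow margin. Gsr had a log2 fold change of 0.69 ± 0.13 (SE) for Strain over TD (edgeR adjusted p = 0.00943), 1.23 ± 0.14 for No Strain over TD (edgeR adjusted p = 0.00089), and -0.54 ± 0.14 for Strain over No Strain (edgeR adjusted p = 0.872). It had the smallest adjusted p of the members in No Strain against TD. Gclm, the modifier subunit of glutamate-cysteine ligase, which raises the activity of the rate-limiting enzyme of glutathione synthesis (chr3:122245557-122270732), had 34.5, 35, 37.4, 44.7 and 40.7 CPM in TD, 54.1, 55.3, 55.5 and 75.3 in Strain and 77.4, 73.5 and 70.2 in No Strain. All patch libraries were above TD, and Strain replicate 4 reached the No Strain range. Gclm had a log2 fold change of 0.64 ± 0.11 (SE) for Strain over TD (edgeR adjusted p = 0.00748), 0.94 ± 0.12 for No Strain over TD (edgeR adjusted p = 0.00176), and -0.30 ± 0.12 for Strain over No Strain (edgeR adjusted p = 0.872). Its exons overlap Gm6061 on the same strand and Gm17494 on the other. Gclc, the catalytic subunit of the same ligase (chr9:77754535-77794485), had 34, 38, 44.2, 41.1 and 37.3 CPM in TD, 37.3, 43.1, 45.9 and 58.9 in Strain and 69.8, 48.4 and 50.2 in No Strain. No Strain libraries were above TD, with replicate 1 well above the other two, and Strain overlapped TD. Gclc had a log2 fold change of 0.25 ± 0.14 (SE) for Strain over TD (edgeR adjusted p = 0.267), 0.53 ± 0.15 for No Strain over TD (edgeR adjusted p = 0.036), and -0.28 ± 0.16 for Strain over No Strain (edgeR adjusted p = 0.881). The No Strain call of Gclc was lost without TD replicate 1, 2, 4 or 5 or No Strain replicate 1 or 3 (edgeR adjusted p from 0.0564 to 0.163), with library totals alone (edgeR adjusted p = 0.059) and with no filter on low counts (edgeR adjusted p = 0.0514). Its log2 fold change was 0.34 without No Strain replicate 1. Gss, which adds the last amino acid of glutathione, ran from 16.3 to 19.9 CPM over the 12 libraries and passed in no comparison; it shares exons with Acss2, Gssos1 and Gssos2 on the other strand.

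**Figure D2:**
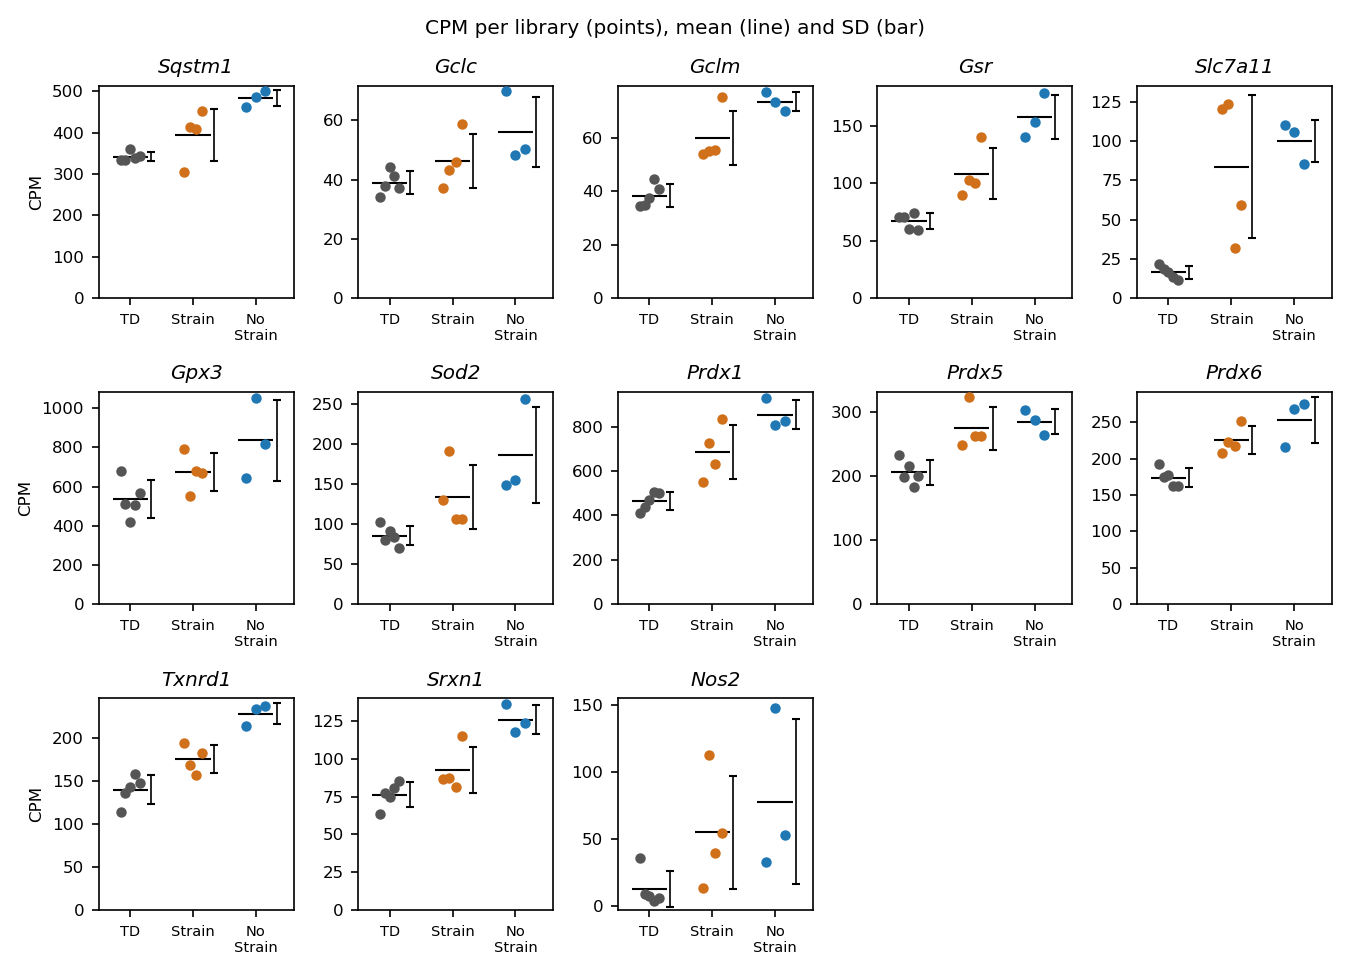
CPM per library (points) in TD, Strain and No Strain for the 13 members past the threshold in a comparison with TD, with the group mean (line) and SD (bar); the y axis is linear. The Gsr points form 3 separate ranges, the Slc7a11 points of both patch groups lie above all 5 TD points, and the 1 high TD point of Nos2 overlaps the patch groups.

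Of the 4 glutathione peroxidases, which reduce peroxides with glutathione, only Gpx3 passed, and only in the test of No Strain against TD. Gpx3, the secreted plasma form (chr11:54902453-54910377), had 681, 510.2, 419.9, 506 and 569 CPM in TD, 790.0, 552, 681 and 671 in Strain and 642, 1052 and 816 in No Strain. TD replicate 1 lay above No Strain replicate 1, so the groups overlapped. Gpx3 had a log2 fold change of 0.33 ± 0.17 (SE) for Strain over TD (edgeR adjusted p = 0.215), 0.64 ± 0.18 for No Strain over TD (edgeR adjusted p = 0.0312), and -0.31 ± 0.19 for Strain over No Strain (edgeR adjusted p = 0.887). Its call was lost without TD replicate 2, 3 or 4 or No Strain replicate 2 or 3 (edgeR adjusted p from 0.063 to 0.135), with no filter on low counts (edgeR adjusted p = 0.0549) and with the letter in the sample titles as a covariate (edgeR adjusted p = 0.0871). That letter is L or R, its meaning is not given, and the groups hold it in unequal shares. Gpx1, the abundant cytosolic form, ran from 341 to 557 CPM and Gpx4, which protects membrane lipids from peroxidation and cells from ferroptosis, from 138 to 193 CPM, with no call for either. Gpx2, the form of epithelia and itself an NRF2 target, was the member with the lowest estimates. It had 14.6, 13.9, 9.53, 9.17 and 10.6 CPM in TD, 8.45, 7.43, 3.11 and 1.49 in Strain and 9.09, 2.66 and 3.35 in No Strain. No library of either patch group reached the lowest TD library, yet the spread within the patch groups was wide. Gpx2 had a log2 fold change of -1.18 ± 0.48 (SE) for Strain over TD (edgeR adjusted p = 0.128), -1.20 ± 0.53 for No Strain over TD (edgeR adjusted p = 0.141), and 0.02 ± 0.55 for Strain over No Strain (edgeR adjusted p = 0.998). Gpx2-ps1 and Gpx4-ps2 are annotated pseudogene copies, and reads of Gpx2 and Gpx4 could be shared with them.

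The 4 glutathione transferases, which attach glutathione to electrophiles, did not pass in any comparison. Over the 12 libraries Gsta4, which clears lipid aldehydes, ran from 5.85 to 15.4 CPM, Gstm1 from 54.7 to 76.6, Gstp1 from 45.7 to 63.9 and Gstt1 from 9.06 to 14.5. For Gstp1 the 3 No Strain libraries (60.6, 61.8 and 62 CPM) lay above all TD libraries, with a log2 fold change of 0.20 ± 0.10 (edgeR adjusted p = 0.181). Gstm1 and Gstp1 have near-identical neighbours in their families, and the rule for reads that match several genes is not given in the sources used here.

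Among the superoxide dismutases and catalase, the mitochondrial Sod2 rose without strain. Sod2, the manganese enzyme of mitochondria, induced by inflammatory signals (chr17:13006846-13040063), had 103, 80.7, 91.3, 83.7 and 70.5 CPM in TD, 131, 191, 107 and 107 in Strain and 149, 155 and 256 in No Strain. All patch libraries exceeded all TD libraries, and No Strain replicate 3 and Strain replicate 2 were the 2 highest. Sod2 had a log2 fold change of 0.64 ± 0.21 (SE) for Strain over TD (edgeR adjusted p = 0.0647), 1.12 ± 0.22 for No Strain over TD (edgeR adjusted p = 0.00836), and -0.48 ± 0.24 for Strain over No Strain (edgeR adjusted p = 0.872). Its Strain difference passed when No Strain replicate 3, which enters the shared estimate of the spread, was left out (edgeR adjusted p = 0.0392) and by DESeq2 (adjusted p = 0.0293). Cytosolic Sod1 ran from 94 to 133 CPM and extracellular Sod3 from 72.3 to 247 CPM, and neither passed in any comparison. Cat, the peroxisomal catalase, had estimates below 0: -0.39 ± 0.14 for Strain (edgeR adjusted p = 0.0979) and -0.35 ± 0.16 for No Strain against TD (edgeR adjusted p = 0.143). Its values were 189, 175, 233, 207 and 163 CPM in TD, 115, 126, 187 and 164 in Strain and 149, 153 and 153 in No Strain. Strain replicates 3 and 4 lay within the TD range, and Strain replicates 1 and 2 and all No Strain libraries below it. Without Strain replicate 3, Cat was called lower in Strain (edgeR adjusted p = 0.029). Adipocyte markers were called lower in both patch groups, as counted above, and their part in the values of Cat was not tested.

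The peroxiredoxins, thiol peroxidases that take up most of the hydrogen peroxide of a cell, divided into 3 members that rose in both patch groups and 3 that passed in neither. Prdx1, the major cytosolic form and an NRF2 target (chr4:116685544-116700822), had 409.8, 437, 468, 505 and 502 CPM in TD, 552, 724, 633 and 835 in Strain and 930.0, 807 and 826 in No Strain. Every patch library was above TD, and Strain replicate 4 reached the No Strain range. Prdx1 had a log2 fold change of 0.56 ± 0.12 (SE) for Strain over TD (edgeR adjusted p = 0.0139), 0.88 ± 0.13 for No Strain over TD (edgeR adjusted p = 0.00253), and -0.32 ± 0.13 for Strain over No Strain (edgeR adjusted p = 0.872). Prdx5, found in mitochondria, peroxisomes and cytosol (chr19:6906697-6910106), had 234, 199, 216, 182 and 200.5 CPM in TD, 249, 325, 262 and 263 in Strain and 303, 288 and 265 in No Strain. All patch libraries lay above TD, with Strain replicate 2 the highest. Prdx5 had a log2 fold change of 0.41 ± 0.09 (SE) for Strain over TD (edgeR adjusted p = 0.0187), 0.47 ± 0.10 for No Strain over TD (edgeR adjusted p = 0.0113), and -0.05 ± 0.11 for Strain over No Strain (edgeR adjusted p = 0.978). The Strain call was lost without Strain replicate 2 (edgeR adjusted p = 0.0584) and the No Strain call without No Strain replicate 1 (edgeR adjusted p = 0.0517). With the title letter as a covariate the Strain call of Prdx5 was lost too (edgeR adjusted p = 0.073). Prdx5 exons overlap Trmt112 on the other strand. Prdx6, the 1-cysteine form, which also acts on phospholipids (chr1:161240112-161251219), had 193, 175, 178, 163 and 163 CPM in TD, 208, 223, 217 and 253 in Strain and 216, 269 and 275 in No Strain. Patch libraries again all lay above TD. Prdx6 had a log2 fold change of 0.37 ± 0.09 (SE) for Strain over TD (edgeR adjusted p = 0.0225), 0.54 ± 0.09 for No Strain over TD (edgeR adjusted p = 0.00503), and -0.17 ± 0.10 for Strain over No Strain (edgeR adjusted p = 0.883). Its Strain call was lost without TD replicate 2 or 4 or Strain replicate 2 or 4 (edgeR adjusted p from 0.0508 to 0.0644) and with the title letter (edgeR adjusted p = 0.0834), and Prdx6-ps2 is an annotated copy.

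Prdx2, the form abundant in red blood cells, had 162, 149, 141, 148 and 148 CPM in TD, 183, 165, 164 and 172 in Strain and 163, 182 and 164 in No Strain. All patch libraries lay above TD by a small margin. Its log2 fold changes were 0.19 ± 0.06 (edgeR adjusted p = 0.053) and 0.18 ± 0.06 (edgeR adjusted p = 0.0707), and both passed without TD replicate 1 (edgeR adjusted p = 0.042 and 0.0495) and by DESeq2 (adjusted p = 0.0178 and 0.0313). Erythroid markers (5 tested) went the other way in No Strain, where all 5 were called lower than in TD, and Prdx2 shares exons with Junb and Rnaseh2a on the other strand. The mitochondrial Prdx3 stayed between 48.3 and 59.1 CPM and Prdx4, of the endoplasmic reticulum, between 34.3 and 59.3 CPM.

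In the thioredoxin system Txnrd1 rose in both patch groups and Srxn1 without strain. Txnrd1, the cytosolic thioredoxin reductase, a selenoprotein that recharges thioredoxin (chr10:82833951-82897712), had 114, 136, 143, 158 and 148 CPM in TD, 194, 168, 157 and 182 in Strain and 214, 233 and 236 in No Strain. No Strain libraries lay above all others, whereas Strain replicate 3 fell just short of the highest TD library. Txnrd1 had a log2 fold change of 0.33 ± 0.09 (SE) for Strain over TD (edgeR adjusted p = 0.0414), 0.70 ± 0.10 for No Strain over TD (edgeR adjusted p = 0.00253), and -0.38 ± 0.11 for Strain over No Strain (edgeR adjusted p = 0.872). The Strain call had the largest adjusted p of the 7. It was lost without any 1 of 9 libraries (TD replicates 1, 2, 3 and 5, Strain replicates 1, 2 and 4, No Strain replicates 2 and 3), with edgeR adjusted p from 0.0511 to 0.103. It was lost as well with the title letter (edgeR adjusted p = 0.117) and when only these 2 groups were fitted (edgeR adjusted p = 0.0588). Srxn1, the sulfiredoxin that repairs overoxidized peroxiredoxins (chr2:152105516-152111376), had 63.5, 77.6, 74.8, 80.9 and 85.2 CPM in TD, 87, 87, 81.5 and 115 in Strain and 137, 118 and 124 in No Strain. The 3 No Strain libraries were above all 9 others, and 3 of the 4 Strain libraries were close to the top of the TD range. Srxn1 had a log2 fold change of 0.28 ± 0.11 (SE) for Strain over TD (edgeR adjusted p = 0.116), 0.72 ± 0.12 for No Strain over TD (edgeR adjusted p = 0.00393), and -0.44 ± 0.13 for Strain over No Strain (edgeR adjusted p = 0.872). Txn1, thioredoxin itself, ran from 199 to 304 CPM and had log2 fold changes of 0.26 ± 0.10 and 0.34 ± 0.11 against TD (edgeR adjusted p = 0.124 and 0.0583). TD replicate 5 was the highest TD library for Txn1, and without it both differences passed (edgeR adjusted p = 0.0486 and 0.0237); DESeq2 called Txn1 in No Strain with all libraries (adjusted p = 0.0349). Nqo1, a quinone reductase often read as a sign of NRF2 activity, ran from 8.75 to 18.5 CPM and did not pass: 0.47 ± 0.18 for Strain (edgeR adjusted p = 0.11) and 0.36 ± 0.20 for No Strain (edgeR adjusted p = 0.225). It passed for Strain without Strain replicate 3 (edgeR adjusted p = 0.0498).

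The metallothioneins did not pass in any comparison, and they differed more between libraries of 1 group than between groups. Mt1 (chr8:94179082-94180327) had 150.3, 94.1, 83.3, 52.1 and 82.7 CPM in TD, 131, 163, 82.2 and 103 in Strain and 167, 67.5 and 211 in No Strain. The highest and the lowest patch libraries were both in No Strain, and TD replicate 1 lay above 3 of the 4 Strain libraries. Mt1 had a log2 fold change of 0.37 ± 0.35 (SE) for Strain over TD (edgeR adjusted p = 0.511), 0.68 ± 0.38 for No Strain over TD (edgeR adjusted p = 0.231), and -0.31 ± 0.40 for Strain over No Strain (edgeR adjusted p = 0.961). Mt2 (chr8:94172664-94173568) had 19.7, 9.12, 8.41, 7.03 and 7.58 CPM in TD, 14.4, 22.4, 8.95 and 11.4 in Strain and 23.7, 5.92 and 26.9 in No Strain. TD replicate 1, No Strain replicates 1 and 3 and Strain replicate 2 were the 4 highest libraries for Mt2, as they were for Mt1, and No Strain replicate 2 and TD replicate 4 were the 2 lowest for both. Mt2 had a log2 fold change of 0.46 ± 0.45 (SE) for Strain over TD (edgeR adjusted p = 0.526), 0.86 ± 0.48 for No Strain over TD (edgeR adjusted p = 0.234), and -0.40 ± 0.50 for Strain over No Strain (edgeR adjusted p = 0.961). The ratio of Mt1 to Mt2 CPM stayed between 7.05 and 11.4 in the 12 libraries. It was not adjusted for the annotated exon lengths, 1246 bases for Mt1 and 588 for Mt2. The annotated exons of Mt1 cover its whole gene, so that length may overstate its transcripts. Of these 4 high libraries, 3 also ranked among the 4 with the highest summed CPM of neutrophil markers, and the fourth, TD replicate 1, had the highest in TD. Other libraries did not match: Strain replicate 1 had the highest neutrophil sum of all (8587 CPM) but was not among the 4. S100a8 and S100a9 gave 3634 and 4761 CPM of that sum, and this library was the highest for no other gene of the list. For Csf3r, Retnlg and Clec4d it was the lowest of the patch libraries, whereas for Camp and Ngp only Strain replicate 3 was higher. No Strain replicate 2, the lowest library for Mt2, had a neutrophil sum (1986 CPM) above every TD library. With the neutrophil list as a covariate the estimates of Mt1 and Mt2 against TD were below 0, with no call. Mt2 shares exons with Gm45774 on the other strand.

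**Figure D3:**
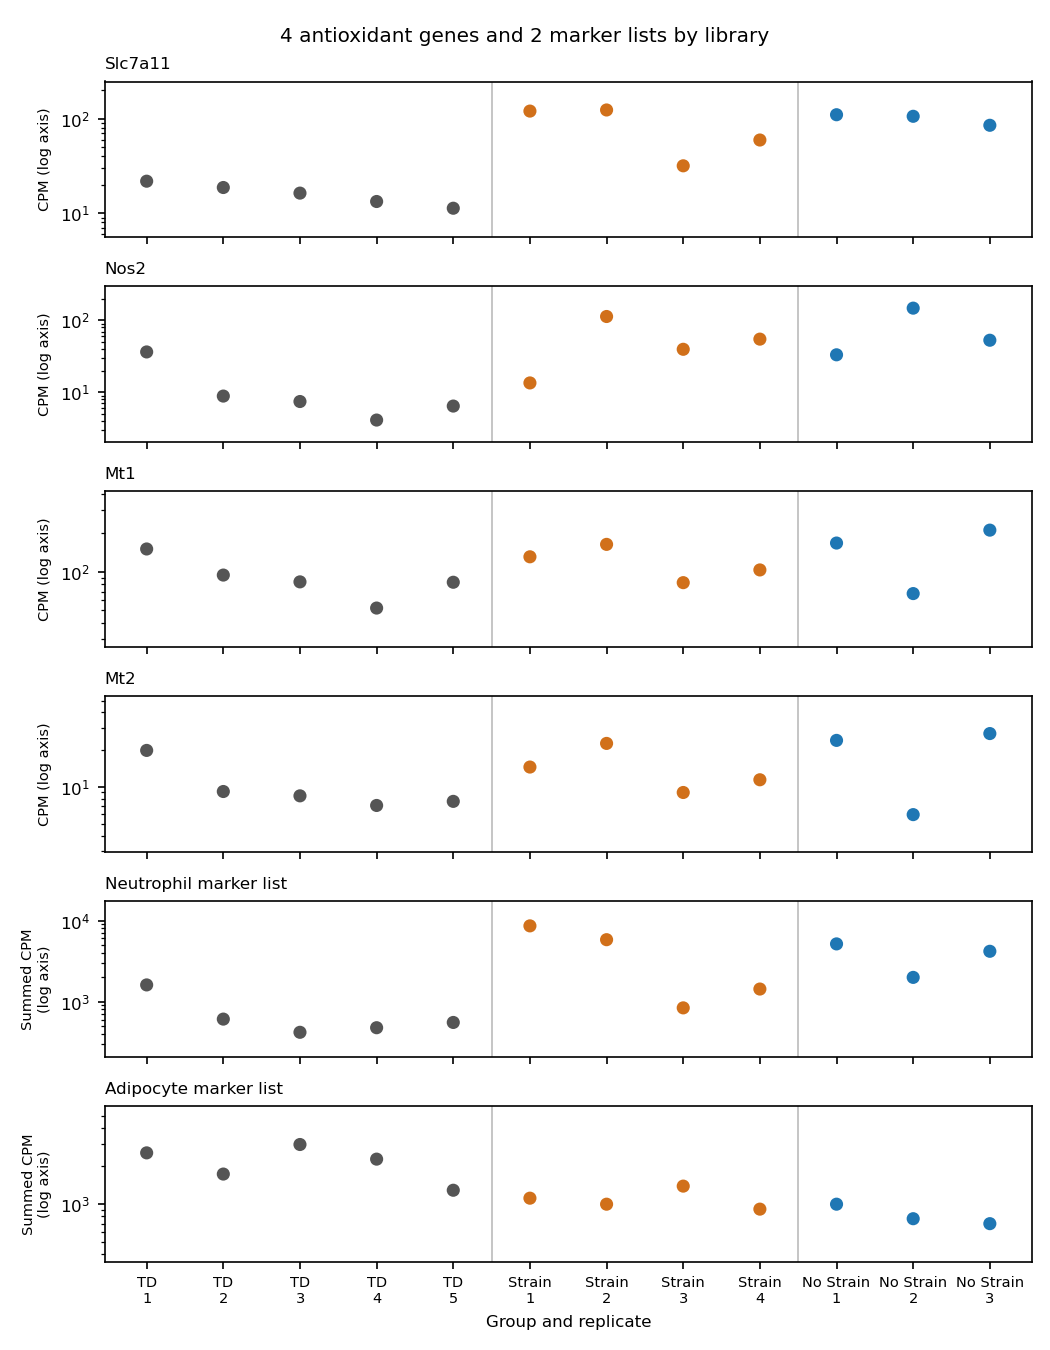
CPM of Slc7a11, Nos2, Mt1 and Mt2 and summed CPM of the neutrophil and adipocyte marker lists in each of the 12 libraries (x axis, by group and replicate), each on its own log axis. TD replicate 1 is the highest TD library for all 4 genes and for the neutrophil sum, and No Strain replicate 2 is high for Nos2 and low for Mt1 and Mt2. The neutrophil sum is made up mostly of S100a8 and S100a9.

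Of the 2 oxidant sources, Nos2 rose without strain and Nox4 did not pass. Nos2, the inducible nitric oxide synthase of activated macrophages and other inflamed cells (chr11:78920787-78960254), had 36.4, 8.87, 7.45, 4.12 and 6.44 CPM in TD, 13.5, 113, 39.7 and 54.9 in Strain and 33.3, 148 and 53 in No Strain. Values within each patch group spanned several-fold, and TD replicate 1 lay above 1 Strain and 1 No Strain library. Nos2 had a log2 fold change of 2.13 ± 0.74 (SE) for Strain over TD (edgeR adjusted p = 0.0808), 2.62 ± 0.78 for No Strain over TD (edgeR adjusted p = 0.0395), and -0.50 ± 0.81 for Strain over No Strain (edgeR adjusted p = 0.971). The No Strain call was lost without any 1 of 8 libraries (TD replicates 2 to 5, each No Strain library, Strain replicate 4), with edgeR adjusted p from 0.0503 to 0.172. It was lost too with the title letter (edgeR adjusted p = 0.0564) and with no filter on low counts (edgeR adjusted p = 0.119). The log2 fold change in No Strain was 1.76 without No Strain replicate 2 and 3.54 without TD replicate 1. In Strain it was 1.50 without Strain replicate 2 and 3.04 without TD replicate 1, and the Strain difference passed in the latter fit (edgeR adjusted p = 0.0243) and by DESeq2 (adjusted p = 0.0399). The macrophage list summed to 2474 to 5531 CPM in TD, 4713 to 7639 in Strain and 4930.1 to 7810.1 in No Strain, and its part in Nos2 was not tested. Nox4, the NADPH oxidase of fibroblasts and blood vessels that makes hydrogen peroxide (chr7:87246096-87398710), had 24.8, 23.7, 18.2, 25.4 and 21.8 CPM in TD, 20.6, 23.3, 21.8 and 28 in Strain and 20.7, 19.9 and 33.2 in No Strain. The groups overlapped almost wholly, with No Strain replicate 3 the highest. Nox4 had a log2 fold change of 0.04 ± 0.16 (SE) for Strain over TD (edgeR adjusted p = 0.899), 0.11 ± 0.17 for No Strain over TD (edgeR adjusted p = 0.703), and -0.07 ± 0.18 for Strain over No Strain (edgeR adjusted p = 0.982).

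The comparison of Strain with No Strain asks what the imposed stretch itself added, a patch being present in both groups. Among the 34 members 0 passed (smallest edgeR adjusted p = 0.872), as did 0 of all 18618 genes (smallest edgeR adjusted p = 0.402), and DESeq2 called 29 genes but 0 members. Estimates were below 0, that is lower under strain, for 27 of the 34, with a median of -0.16 beside 0.01 over all genes. Before adjustment 6 members were under 0.05 in the edgeR test, all lower under strain: Gsr, Txnrd1, Srxn1, Sqstm1, Gclm and Prdx1. Over all genes 5.61% had an unadjusted p under 0.05 and 2.8% had one and were lower under strain. Gsr, Txnrd1, Srxn1 and Sqstm1 did not overlap between these groups. None of these differences survived adjustment over all genes, and with 4 against 3 libraries the absence of a call does not show that the groups were alike.

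Levels were set side by side per kilobase of exon, the union of the annotated exons, which understates genes with long or rarely used exons. In TD the most abundant members were Gpx3 (296 CPM per kilobase), Gpx1 (289), Txn1 (209.7) and Prdx1 (153). The first and second of these did not differ beyond their spread, with SDs of 53.2 and 36.6 (n = 5). The lowest were Nos2 (2.87), Nox4 (2.69) and Slc7a11 (1.17). Under the patches Nos2 stood at 12.5 and 17.7 CPM per kilobase and Slc7a11 at 6.02 and 7.22, in Strain and No Strain. Members that rose were found at all levels, from Gpx3 and Prdx1 at the top to Slc7a11 at the bottom.

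**Figure D4:**
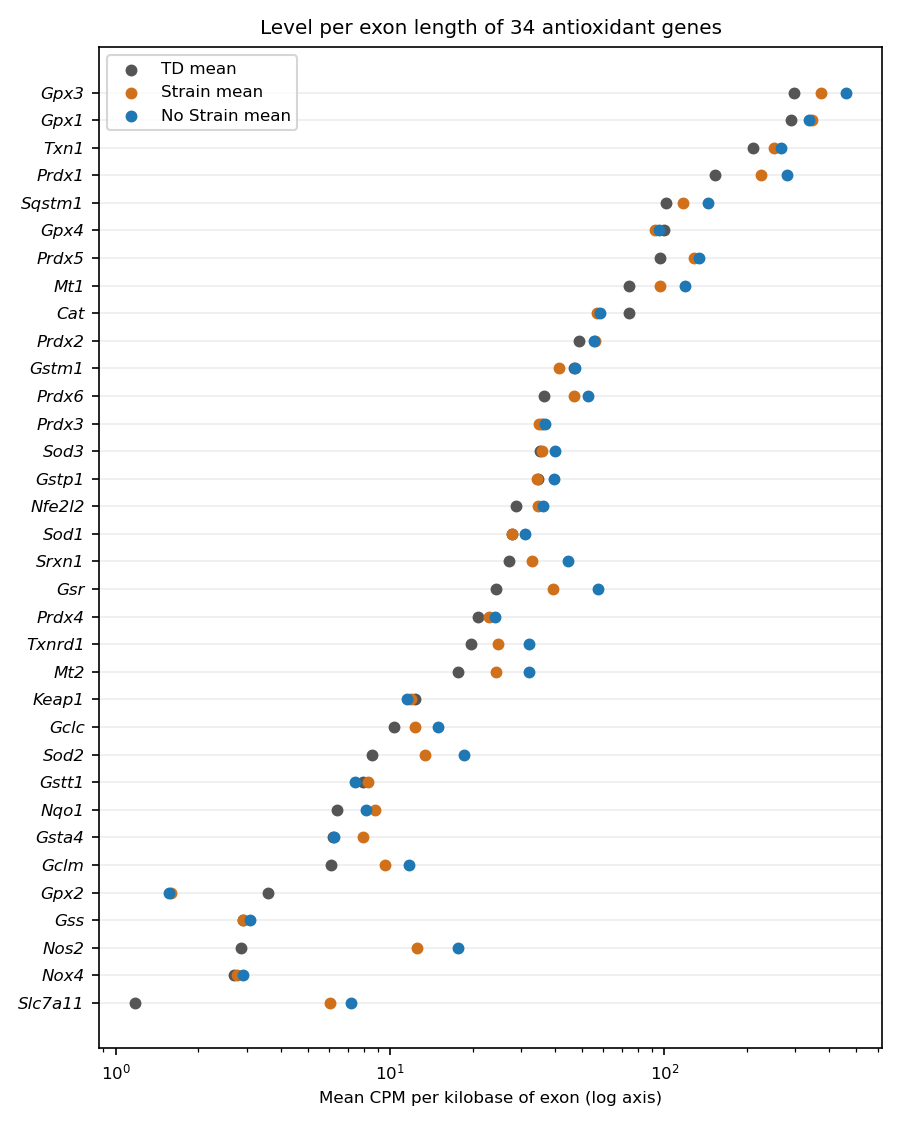
Mean CPM per kilobase of exon (x axis, log) of the 34 members in TD, Strain and No Strain, ordered by the TD mean. Slc7a11 and Nos2 show the widest gaps between TD and the patch groups. Gpx2 and Cat lie to the left of TD in both patch groups, as do Gpx4 and Keap1 by a small margin.

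Other genes of the same pathways were read from 5 lists that hold no member. Of 35 further NRF2 partners and targets, 5 rose and 3 fell under strain, and 11 rose and 4 fell without strain. These are 22.9% and 42.9% of the list, beside 12.6% and 17.8% of all genes tested. Genes of this list were called in both directions. Fth1, the heavy chain of ferritin, rose by 0.64 ± 0.13 in Strain and 1.05 ± 0.14 in No Strain on the log2 scale (edgeR adjusted p = 0.0137 and 0.00228). Pgd, a NADPH-producing enzyme of the pentose phosphate path, rose by 0.23 ± 0.07 in Strain, as did the aldo-keto reductase Akr1b10 by 0.33 ± 0.10 (edgeR adjusted p = 0.0412 and 0.0421). In No Strain the transaldolase Taldo1 rose by 0.54 ± 0.09 and the export pump Abcc3 by 0.71 ± 0.12 (edgeR adjusted p = 0.00399 and 0.00425). Aldh1a1, a retinaldehyde dehydrogenase, fell by 1.06 in Strain and by 0.95 in No Strain, and Ephx1, an epoxide hydrolase, fell by 0.60 and by 0.72 (edgeR adjusted p = 0.00251, 0.00276, 0.0185 and 0.00979). The related factor Nfe2l1 fell by 0.45 in Strain (edgeR adjusted p = 0.0363) and Aldh3a1, an aldehyde dehydrogenase of epithelia, fell by 1.22 in No Strain (edgeR adjusted p = 0.037). Leaving out single libraries moved the 5 that rose under strain to between 1 and 6 and the 3 that fell to between 1 and 4. Without strain the 11 moved to between 5 and 12 and the 4 to between 2 and 4.

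Of 42 other glutathione genes 38 were tested, with 3 higher and 2 lower in Strain and 4 of each in No Strain, 13.2% and 21.1% of those tested and close to the shares over all genes. With single libraries left out, 2 to 5 were higher and 1 to 2 lower in Strain, and 1 to 5 higher and 1 to 6 lower in No Strain. Slc3a2, the heavy chain that pairs with Slc7a11 in the cystine exchanger, ran from 102 to 124 CPM in TD, from 151 to 179.9 in Strain and from 173 to 179 in No Strain, with no overlap between TD and the patch groups. It rose by 0.54 ± 0.07 and 0.66 ± 0.08 (edgeR adjusted p = 0.00386 and 0.00111). Ggt5, a gamma-glutamyltransferase at the cell surface, rose by 0.86 ± 0.16 and 0.69 ± 0.18 (edgeR adjusted p = 0.0107 and 0.0218). Glutaredoxin Glrx rose by 0.81 ± 0.23 in Strain, and Cth, which makes cysteine from cystathionine, by 1.20 ± 0.26 in No Strain (edgeR adjusted p = 0.0413 and 0.0118). Gstp2, the neighbour and close copy of Gstp1, fell by 0.90 and by 0.87 (edgeR adjusted p = 0.00437 and 0.00377). Chac1, which breaks glutathione down, fell by 0.78 and by 0.96 (edgeR adjusted p = 0.0379 and 0.0219), and the transferase Gstt3 fell by 0.45 in No Strain (edgeR adjusted p = 0.037).

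Of 29 other thioredoxin, methionine sulfoxide and selenoprotein genes, 5 rose and 1 fell in Strain, and 4 rose and 4 fell in No Strain. These are 20.7% and 27.6% of the list, beside 12.6% and 17.8% of all genes tested. Leaving out single libraries gave 2 to 5 higher and 0 to 1 lower in Strain, and 3 to 5 higher and 1 to 4 lower in No Strain. Msrb1, a methionine sulfoxide reductase, rose by 0.47 ± 0.10 and 0.70 ± 0.11 (edgeR adjusted p = 0.0156 and 0.00348), and the thioredoxin-domain gene Txndc9 by 0.26 ± 0.05 and 0.24 ± 0.05 (edgeR adjusted p = 0.0116 and 0.013). The selenoprotein Selenoh rose by 0.38 ± 0.08 in Strain, and Sephs2, which makes the selenium donor for selenoproteins such as Txnrd1, by 0.61 ± 0.09 in No Strain (edgeR adjusted p = 0.0148 and 0.00331). Txnip, which binds and inhibits thioredoxin, fell by 0.31 in Strain (edgeR adjusted p = 0.042). In No Strain the mitochondrial selenoprotein Selenoo fell by 0.39, the stress-induced Sesn1 fell by 0.53 and the methionine sulfoxide reductase Msrb2 fell by 0.70 (edgeR adjusted p = 0.0222, 0.0229 and 0.0307).

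Among 24 other oxidant-producing and arginine enzymes, 20 were tested, and 3 rose and 1 fell in Strain, 5 rose and 2 fell in No Strain. These are 20% and 35% of those tested, beside 12.6% and 17.8% of all genes tested. With single libraries left out, 2 to 3 were higher and 1 to 2 lower in Strain, and 3 to 7 higher and 1 to 2 lower in No Strain. Arg2, the mitochondrial arginase that competes with Nos2 for arginine, ran from 1.32 to 2.75 CPM in TD, from 4.44 to 9.06 in Strain and from 5.04 to 15 in No Strain, without overlap with TD. It rose by 1.67 ± 0.33 and 2.35 ± 0.35 (edgeR adjusted p = 0.0123 and 0.00287). Ass1, which remakes arginine from citrulline, rose by 0.92 ± 0.14 and 1.18 ± 0.15 (edgeR adjusted p = 0.00544 and 0.00219). Cyba, the p22phox subunit shared by NADPH oxidases, rose by 0.63 ± 0.18 and 0.92 ± 0.19 (edgeR adjusted p = 0.0412 and 0.00988). Nos1, the nitric oxide synthase of nerve and skeletal muscle, fell by 2.73 and by 3.02 on the log2 scale (edgeR adjusted p = 0.00186 and 0.00104), from 11.3 to 26.5 CPM in TD to at most 3.33 and 2.75 CPM. Of 15 skeletal muscle markers tested, 11 were called lower in Strain and 3 in No Strain, where their summed CPM overlapped TD. Their part in Nos1 was not tested. Aox1, an aldehyde oxidase, fell by 0.60 in No Strain (edgeR adjusted p = 0.047).

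Of 18 other metallothionein and zinc transport genes 17 were tested, with 2 higher and 1 lower in Strain and 2 higher and 1 lower in No Strain. This is 17.6% in each, beside 12.6% and 17.8% of all genes tested, so the No Strain share is close to that background. Without single libraries 0 to 2 were higher and 0 to 1 lower in Strain, and 1 to 2 higher and 0 to 1 lower in No Strain. Slc39a4, a zinc importer of the plasma membrane, rose by 1.26 ± 0.30 in Strain and 1.91 ± 0.32 in No Strain (edgeR adjusted p = 0.023 and 0.00399), from 0.833 to 2.22 CPM in TD to 3.21 to 5.13 and 4.41 to 7.72 CPM. Slc30a7, which loads zinc into the Golgi, rose by 0.31 ± 0.09 and 0.35 ± 0.10 (edgeR adjusted p = 0.04 and 0.0267). The vesicular zinc transporter Slc30a2 fell by 0.80 and by 0.76 (edgeR adjusted p = 0.0266 and 0.0346). Between Strain and No Strain 0 genes of any of the 5 lists passed.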

How the data were processed

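Poly(A) RNA was measured by sequencing in 12 dorsal wounds, 1 library each. RNA came from snap-frozen wounds, purified on Qiagen columns and selected with oligo(dT), per the labels' protocols. The authors deposited 1 table per library of raw counts by gene identifier, not normalized. The submitters' processing notes name bcl2fastq 2.17, FastQC, cutadapt, STAR, featureCounts, DESeq2 and the build GRCm38; roles, settings, annotation release, strand setting and the rule for reads matching several genes are not given in the sources used here. Symbols, gene positions and exon lengths were taken from GENCODE M21 (GRCm38): 54079 of 54232 identifiers matched a symbol, and promoter windows came from RefSeq (GRCm38.p6).

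The members and all gene lists were chosen with earlier results of these data known, so no list is independent evidence. Genes were kept by filterByExpr of edgeR 4.0.16 in R 4.3.3 (minimum count 10, minimum total count 15), leaving 18618. Libraries were scaled by TMM, and all 12 entered 1 robust quasi-likelihood fit with a mean per group; Benjamini-Hochberg adjustment ran over all 18618 genes, with calls under 0.05. Each standard error is the log2 fold change divided by the square root of its F statistic. Log2 CPM used a prior count of 2. Every member past the threshold was named, with Nfe2l2, Keap1, Mt1, Mt2, Nos2 and Nox4 whatever their call; from each pathway list at most 3 genes that rose and 3 that fell were named, in order of p. Gpx2, Cat, Prdx2, Gstp1, Txn1 and Nqo1 were given beyond that rule, after their values were seen.

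The fit was tested on simulated counts with 200 changed genes per comparison. For Strain against TD, No Strain against TD and Strain against No Strain, it recovered 18%, 24% and 16% of genes changed by 0.5 log2. At a change of 1 log2 it recovered 68%, 55% and 61%. False calls were 3.91%, 4.55% and 2.59% of all calls. Small differences were thus mostly missed in the simulation. It changed 200 of 18618 genes, whereas 12.6% and 17.8% were called in Strain and No Strain against TD. The adjustment depends on the share of changed genes, so these recovery rates may not carry over to the comparisons with TD. No pair of replicates agreed within sampling noise (chi-square per degree of freedom 9.11 to 71.9 over 19 pairs). Alternatives were DESeq2 1.42.0, its size factors, library totals alone, no filter, a mean of at least 5 CPM, only the groups compared, a covariate for the title letter or the muscle list, omission of each library, and, added after seeing the data, the adipocyte and neutrophil lists as covariates.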

Additional observations from a re-analysis of the deposited data

Results flagged for a closer look

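Single libraries were checked within TD and Strain, the groups of 4 and 5 libraries, by whether the highest or lowest value stood apart from the next by more than Dixon's limit. Of 68 sets of values, 3 did, where chance gives about 3.4. Gclm, a subunit of the glutathione-making ligase, had 6.24 log2 CPM in Strain replicate 4 (75.3 CPM), with the next Strain library at 5.80. Txn1, thioredoxin, had 8.05 log2 CPM in TD replicate 5 (265 CPM), with the next at 7.76. Mt2, a metallothionein, had 4.30 log2 CPM in TD replicate 1 (19.7 CPM), with the next at 3.20.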

How the results depend on the processing

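Against the 7 members called in Strain against TD, the title letter as a covariate gave 4 and the skeletal muscle, adipocyte and neutrophil lists 0 each, and leaving out single libraries gave 4 to 9. The 13 of No Strain against TD became 0 with the adipocyte or neutrophil list, and 10 to 14 with single libraries left out. Over all genes the 2349 calls for Strain became 1527 with no filter, 798 with the title letter, 1 with the muscle list, 120 with the adipocyte list, 0 with the neutrophil list and 882 to 2458 with single libraries left out (882 without Strain replicate 2). The 3305 for No Strain became 2145, 1011, 122 and 0 with the letter, muscle, adipocyte and neutrophil covariates and 1505 to 3415 with single libraries left out (1505 without No Strain replicate 3). Without TD replicate 2, 3 or 4 the Strain calls numbered 1426, 1301 and 1274, and without No Strain replicate 1 the No Strain calls numbered 1668. With library totals alone No Strain against TD split into 1257 higher and 2046 lower, against 1741 and 1564. DESeq2 called 29 genes between Strain and No Strain, and 10 and 16 members against TD. For the 20 called gene results, 345 of 440 alternative values kept the call and direction, 92 lost the call and 3 turned. The 3 turned with the neutrophil list, in No Strain against TD: Gpx3 -0.11, Sod2 -0.17 and Nos2 -0.31. With the adipocyte list all 20 estimates stayed above 0. Among results not called, 28 of 748 changed sign. With the neutrophil list in Strain against TD these were Gpx3 -0.26, Sod2 -0.36, Mt1 -0.78, Mt2 -0.72, Nos2 -0.059 and Nox4 -0.33. In No Strain against TD they were Mt1 -0.76, Mt2 -0.61 and Nox4 -0.39, and between Strain and No Strain Nos2 0.25 and Nox4 0.054. With the adipocyte list they were Nfe2l2 -0.043 and Nox4 -0.47 for No Strain against TD, Nox4 -0.27 for Strain against TD, and Nfe2l2 0.11 and Nox4 0.19 between Strain and No Strain. The muscle list gave Gpx3 -0.063 for Strain against TD and Mt2 0.051 and Nox4 0.039 between Strain and No Strain, and the title letter Nox4 -0.076 for Strain against TD. With single libraries left out, values between Strain and No Strain ran from -0.20 to 0.015 for Nfe2l2 and -0.52 to 0.00082 for Slc7a11 (above 0 without Strain replicate 3), -1.12 to 0.36 for Nos2 (without No Strain replicate 2), and -0.66 to 0.030 for Mt1 and -0.21 to 0.21 for Nox4 (without No Strain replicate 3). Nox4 ran from -0.058 to 0.096 for Strain (below 0 without Strain replicate 4 or TD replicate 3) and -0.17 to 0.24 for No Strain over TD (without No Strain replicate 3). For all of these the cause was not tested. No paired analysis was possible because the labels give no number that pairs wounds across groups. Groups of 3 to 5 libraries limit the precision; a member without a call may still differ.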
